A study of Homo sapiens with 5 samples.

Results

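G2/M and mitosis genes were examined in LNCaP cells exposed to celastrol. The set was a list of 40 symbols given by name, drawn up with earlier results of these data known, and 39 of them were measured among the 12165 genes of the arrays; UBE2C was not analysed here. Where several probe sets name a gene, the brightest over the 4 compared arrays stands for it. LNCaP is an established human prostate cancer line that depends on androgen signalling, and celastrol is a triterpenoid from the thunder god vine. Cells in RPMI medium with 10% FBS received 1.25 µM celastrol for 6 h (2 arrays) or DMSO, the solvent, for 6 h (3 arrays), and no genotype or other agent is named in the labels for either group. The labels call the arrays of a group biological replicates but do not say what was repeated, so the spread between them may in part be technical. The 4 arrays compared were celastrol replicates 1 and 2 and DMSO replicates 1 and 2; the array labelled DMSO replicate 3 is described apart because its profile is not that of LNCaP cells.

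The genes of this programme act in the last part of the cell cycle. Cyclin A2 and B-type cyclins activate the kinase CDK1, which drives entry into mitosis. Polo-like and Aurora kinases build the spindle, the spindle checkpoint delays anaphase until chromosomes are attached, and kinesins move chromosomes and divide the cell. Their transcription rises late in the cycle, under the DREAM and MuvB complexes, B-MYB and FOXM1, which act through a short element near the start of transcription, the cell cycle genes homology region, while the factor NF-Y binds nearby CCAAT boxes. In a growing culture the level of these messages therefore also follows the share of cells in G2 and mitosis. In bulk RNA of this kind, fewer cells in a phase and less RNA per cell cannot be told apart.

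Of 6 members whose promoters are printed here, CKS2 stood higher with celastrol and CCNA2 and PLK1 stood lower. CKS1B, CCNB1 and CCNB2 stood close to their DMSO level. The promoters of these 6 are shown because they carry 1 or both of these shared elements in the forms marked here, in CCNA2 a CCAAT box only. Each is the 130 bases before the annotated start of transcription in RefSeq, GRCh38.p14, written 5′ to 3′ on the strand of the gene. Capitals mark every match to a CCAAT box and to 2 forms of the homology region, wherever it lies. These forms are TTTGAA, the common one, and its variant TTTAAA. On the other strand the box reads ATTGG, and the common form there reads TTCAAA.
CKS2 (chr9:89311065-89311194, plus strand): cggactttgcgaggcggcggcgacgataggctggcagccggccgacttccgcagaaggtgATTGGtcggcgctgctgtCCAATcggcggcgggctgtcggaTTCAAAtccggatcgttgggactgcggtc
CKS1B (chr1:154974551-154974680, plus strand): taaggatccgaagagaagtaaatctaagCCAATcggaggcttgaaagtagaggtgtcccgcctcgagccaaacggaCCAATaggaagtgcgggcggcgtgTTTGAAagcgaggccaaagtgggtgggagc
CCNB1 (chr5:69167020-69167149, plus strand): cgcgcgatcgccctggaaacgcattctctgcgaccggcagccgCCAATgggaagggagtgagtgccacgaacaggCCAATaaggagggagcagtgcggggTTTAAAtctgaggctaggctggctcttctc
CCNB2 (chr15:59105016-59105145, plus strand): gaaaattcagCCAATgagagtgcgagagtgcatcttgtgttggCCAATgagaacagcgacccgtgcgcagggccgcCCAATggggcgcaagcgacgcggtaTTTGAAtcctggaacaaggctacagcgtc
CCNA2 (chr4:121823884-121824013, minus strand): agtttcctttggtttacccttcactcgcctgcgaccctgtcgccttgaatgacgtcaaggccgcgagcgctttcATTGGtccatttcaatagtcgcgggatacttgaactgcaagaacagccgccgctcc
PLK1 (chr16:23678759-23678888, plus strand): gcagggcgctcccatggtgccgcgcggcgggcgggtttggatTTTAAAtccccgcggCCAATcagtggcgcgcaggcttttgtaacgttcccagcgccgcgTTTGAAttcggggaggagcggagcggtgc

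In CKS2, CCNB2 and PLK1 the element TTTGAA began at -29 from the start, and in CKS1B at -30, where CCNB1 had TTTAAA. The nearest CCAAT box lay upstream of it, beginning at -52 in CKS2, at -54 in CKS1B and CCNB2, at -55 in CCNB1 and at -73 in PLK1. Further boxes began at -70 in CKS2, -102 in CKS1B, -87 in CCNB1 and -87 and -120 in CCNB2. PLK1 also held TTTAAA at -88, upstream of its CCAAT box. The window of CCNA2 held a CCAAT box at -56 and neither TTTGAA nor TTTAAA. Its printed sequence does hold cttgaa, which differs from TTTGAA in the first base and was not searched. The missing match therefore does not show that CCNA2 lacks a homology region. Promoter windows of 250 bases before to 50 after a start were available for 32 of the 39 members, in 41 windows. TTTGAA occurred on either strand in 24 of these windows (58.5%), against 15.2% of all 35116 windows and 12.4% of those of protein-coding genes. CCAAT occurred in 34 windows (82.9%) against 34.6% of all, and both motifs together in 23 (56.1%) against 5.9%. TTTAAA, which cannot be told from its own reverse strand, was found in 15 windows (36.6%) against 12.2%. An 8-base core of the heat shock element, GAANNTTC or TTCNNGAA, occurred in 5 windows (12.2%). That share lay between 13.5% of all windows and 11.6% of those of protein-coding genes. The median change with celastrol was 0.0028 for the 22 members with TTTGAA in a window and -0.05 for the 10 members with a window but no TTTGAA. This split does not part members with a homology region from members without one. TTTGAA or TTTAAA was found for 28 of the 32 members, and CCNB1, without TTTGAA, carried TTTAAA. These matches describe letters and not bound sites.

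The 5 arrays had total intensities from 4939397 to 5348496, and the 4 compared arrays correlated with one another at 0.994 to 0.998 across probe sets. Luminal prostate markers, of which 12 of 17 listed were measured, had a summed intensity of 18049 to 19545 on the 4 arrays and 312 on DMSO replicate 3, where 11 of the 12 were more than 2-fold lower. Leukocyte and lymphoid markers, 15 of 16 measured, summed to 904 to 979 on the 4 arrays, where 11 of them were among the 40% dimmest probe sets. They summed to 33800 on DMSO replicate 3, where 12 of the 15 were more than 2-fold higher. CD2, CD3D and CD3E were not, with differences of 0.13, 0.03 and -0.24. The lineage markers thus fit the label on 4 arrays and go against it on the fifth. Levels below are log2(intensity + 1), and a change is the celastrol mean minus the mean of DMSO replicates 1 and 2 on that scale, where dim genes show less than their true change. Levels of different probe sets are not compared with one another. The number of arrays limits the precision: with 2 arrays against 2, an exact permutation test of a single gene cannot give a two-sided p below 0.333, so tests were made with limma across all probe sets.

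With celastrol the mitotic programme as a whole stayed near its DMSO level at 6 h, while a few members stood apart in each direction. CKS2 stood 1.44-fold higher, CDC25C 1.23-fold and TPX2 1.11-fold higher. BIRC5 stood 1.44-fold lower, CCNA2 1.37-fold, KIF11 1.31-fold, KIF2C 1.25-fold, CDK1 1.17-fold, MAD2L1 1.16-fold and PLK1 1.14-fold lower. No member passed the limma test after Benjamini-Hochberg adjustment at 0.05, either lower (0.00822% of all genes) or higher (0.00822%), and the smallest adjusted p among members was 0.0638, that of CKS2. The value of KIF11 leant on 1 array: its change of -0.39 was -0.22 without DMSO replicate 2. All 39 members were brighter than the 40% dimmest probe sets, and the 8091 genes that were, called bright genes here, are the closer background. The median change over the members was -0.02, as over the bright genes, beside 0 over all genes. Below 0 lay 24 members (61.5%, against 49.6% of all and 56.0% of bright genes) and above it 15 (38.5%, against 47.7% and 42.2%).

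Without adjustment, 8 members had a limma p under 0.05 on the lower side (20.5%, against 8.80% of all and 12.6% of bright genes) and 3 on the higher side (7.69%, against 6.30% and 7.86%). The 8 were KIF2C, CCNA2, PLK1, CDK1, NUSAP1, MAD2L1, CDC25B and BIRC5, and the 3 were CKS2, TPX2 and CDC25C. Both celastrol arrays lay below both DMSO arrays for 11 members (28.2%, against 19.4% of all and 26.5% of bright genes) and above them for 4 (10.3%, against 15.0% and 16.3%). With quantile normalization these counts were 13 and 9, and with each array centred on its median 11 and 9. With 1 array left out, where a lone array overlaps less, the count below was 20 without celastrol replicate 1. The count above was then 8 without celastrol replicate 2 and 13 without DMSO replicate 2. Shares over all or bright genes are not given for these other settings, so their counts cannot be set against a background. A change of at least 0.2 was seen for 6 members on the lower side (15.4%, against 9.64% of all and 14.0% of bright genes) and 2 on the higher (5.13%, against 6.49% and 8.57%). Beside bright genes, the members' share on the lower side in the reported fit was thus near the background by separation and by size. By unadjusted p it was above that background, for genes that are not independent of one another. That count includes CDC25B and NUSAP1, with changes of -0.07 and -0.11, whose values were identical on both DMSO arrays. With the dim probe sets left out, the limma p was 0.0794 for CDC25B and 0.045 for NUSAP1. CDC25B thus leaves the count in that fit, for which the share of bright genes by unadjusted p is not given. The higher side in the reported fit was near the share of bright genes by unadjusted p. By separation it was under it, but this rests on a count of 4 in which ties count as overlap. CCNB2, TTK and KIF14 lay above DMSO replicate 1 and exactly at DMSO replicate 2 on both celastrol arrays. The count separated on the higher side rose to 9 members with either normalization. Without a background share for those settings, the reading against bright genes cannot be carried over to them.

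The intervals give the size of change that these arrays allow. The 95% limma interval of the change lay within -0.5 and 0.5 for 33 members and within -1 and 1 for 38; that of BIRC5 ran from -1.04 to -0.0067. For 28 members the interval included 0. The median absolute change was 0.07 for the members, beside a median absolute difference of 0.06 between the celastrol replicates and 0.08 between DMSO replicates 1 and 2 for the same genes. For 15 members the change was larger than both replicate differences (38.5%, against 25.4% of all and 32.4% of bright genes).

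**Figure D1:**
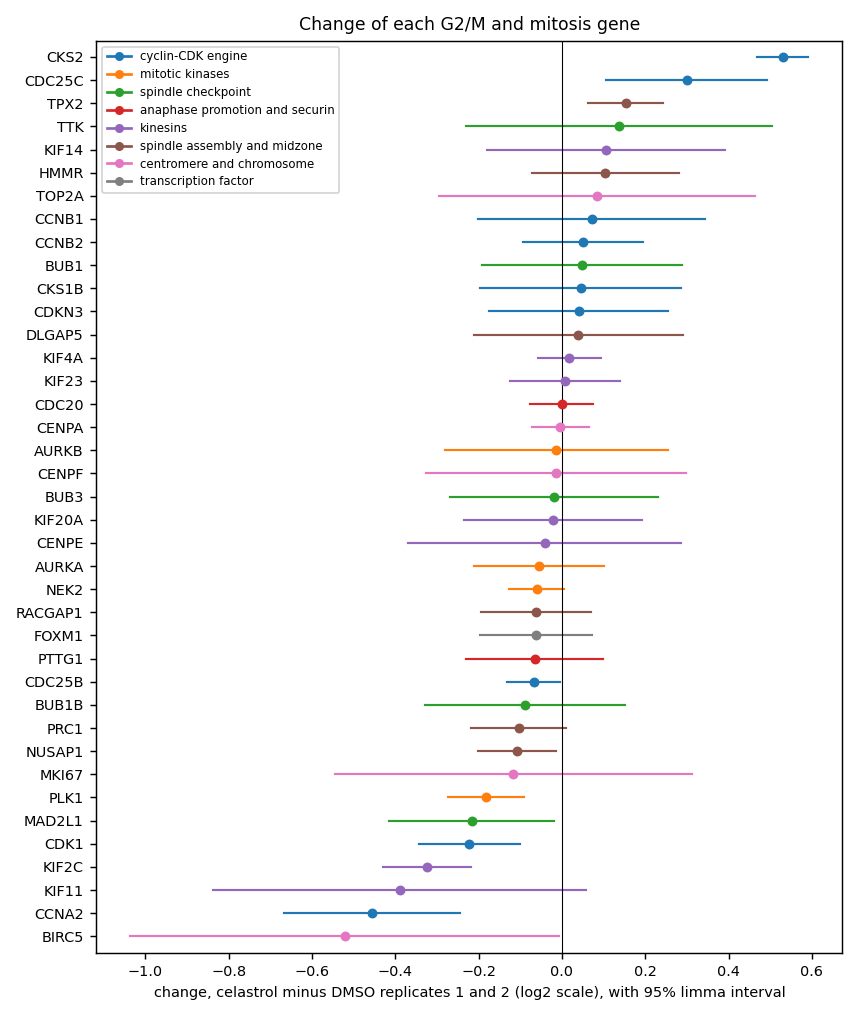
Change of each of the 39 measured members with celastrol, on the log2 scale (horizontal axis), as points with 95% limma intervals, coloured by role. Most points sit near 0; CKS2 at 0.53 lies farthest to the right and BIRC5 at -0.52 farthest to the left, with the widest interval.

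The cyclin and CDK group had 9 measured members, of which 3 lay below 0 and 6 above, with a median of 0.04, and it held members that stood apart in both directions. CKS2, a small subunit that binds cyclin-dependent kinases, stood at 10.79 and 10.78 on the celastrol arrays and at 10.25 and 10.26 on the DMSO arrays. All 4 values were tight, with an SD of 0.0082 (n = 2) with celastrol and 0.0061 (n = 2) with DMSO, and the groups did not overlap. Its change was 0.53 (SE 0.0192, interval 0.47 to 0.59), with a limma adjusted p of 0.0638. By p it ranked 28 of 12165 genes. It passed the threshold when the 40% dimmest probe sets were left out (limma adjusted p = 0.0388, where 0.569% of 8091 genes passed on the higher side), and in 5 of 15 alternative settings in all, with adjusted p between 0.0356 and 0.876. No other member passed in any of them, but with all 5 arrays or with a replicate block no gene at all was called.

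CKS1B, the other CKS subunit of the list, overlapped between the groups, with a change of 0.04 and an interval from -0.20 to 0.29. That interval does not reach the interval of CKS2, although the difference between the genes was not itself tested.

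CCNA2, cyclin A2, stood at 7.18 and 7.04 on the celastrol arrays and at 7.60 and 7.54 on the DMSO arrays. Both celastrol values were lower, and the change was -0.46 (SE 0.0657, limma adjusted p = 0.169). Its second, dimmer probe set had a change of -0.11 with an interval from -0.65 to 0.43.

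The B-type cyclins overlapped between the groups. CCNB1 stood at 9.31 and 9.27 with celastrol and at 9.12 and 9.32 with DMSO, so that 1 DMSO array lay above both celastrol arrays and 1 below. CCNB1 had a change of 0.07 (interval -0.20 to 0.34), and CCNB2 had a change of 0.05 (interval -0.09 to 0.19). Their catalytic partner CDK1 stood at 9.73 and 9.67 with celastrol and at 9.89 and 9.95 with DMSO, a change of -0.22 (SE 0.0380, limma adjusted p = 0.192). The groups did not overlap for CDK1, and its other 2 probe sets had changes of -0.16 and -0.28.

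The phosphatases that activate CDK1 differed in sign. CDC25C stood at 7.02 and 6.90 with celastrol and at 6.62 and 6.70 with DMSO. Both celastrol arrays were higher, and the change was 0.30 (SE 0.0600, limma adjusted p = 0.229). Its dimmer probe sets had changes of 0.18 (interval -0.30 to 0.66) and 0.02 (interval -0.06 to 0.11), the latter among the 40% dimmest. CDC25B had a change of -0.07 with an interval from -0.13 to -0.0037, and CDKN3, a phosphatase that acts on CDKs, a change of 0.04.

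**Figure D2:**
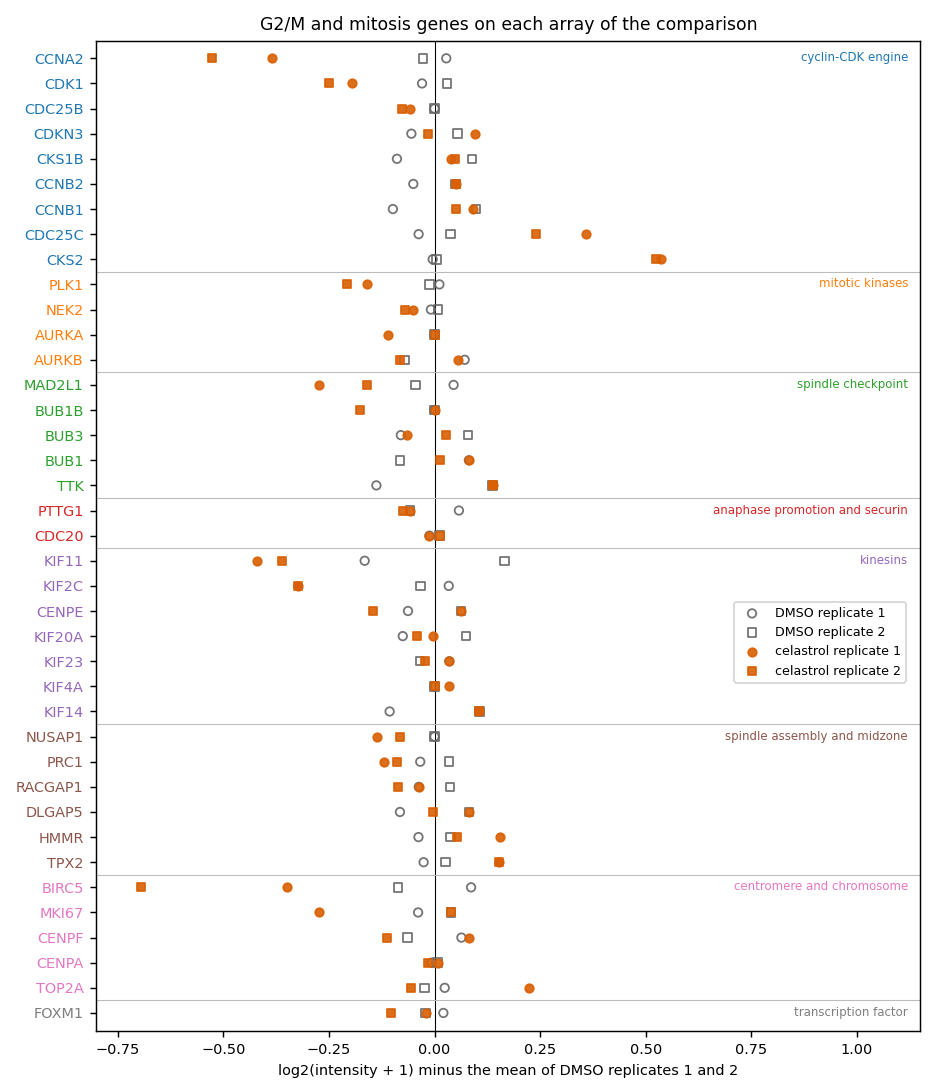
Level of each member on the 4 compared arrays, as log2(intensity + 1) minus the mean of DMSO replicates 1 and 2 (horizontal axis), with genes grouped by role; filled symbols are celastrol and open symbols DMSO, circles replicate 1 and squares replicate 2. Both celastrol symbols lie left of both DMSO symbols for 11 members and right of them for 4, and the rest overlap.

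All 4 mitotic kinases lay below 0, with a median of -0.06. PLK1, the polo-like kinase needed for spindle formation and mitotic entry, stood at 7.84 and 7.79 with celastrol and at 8.01 and 7.99 with DMSO. Its groups were narrow and separate, and the change was -0.18 (SE 0.0286, limma adjusted p = 0.179). AURKA, the centrosomal Aurora kinase, stood at 7.99 and 8.10 with celastrol and at 8.10 on both DMSO arrays. Celastrol replicate 2 thus held the DMSO value, and the change was -0.05 (interval -0.21 to 0.10). NEK2, a kinase of centrosome separation, stood at 5.53 and 5.51 against 5.57 and 5.59. The separation of NEK2 was small, with a change of -0.06. AURKB, the Aurora kinase of the chromosomal passenger complex, had a change of -0.0137 and overlapped.

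Among the 5 spindle checkpoint genes the change ran from -0.22 for MAD2L1 to 0.14 for TTK, with a median of -0.02. MAD2L1, the checkpoint protein that holds back CDC20, stood at 5.91 and 6.03 with celastrol and at 6.23 and 6.14 with DMSO. The groups did not overlap, with an SE of 0.0618 and a limma adjusted p of 0.342. TTK, the kinase at the head of the checkpoint, stood at 5.83 on both celastrol arrays and at 5.55 and 5.83 with DMSO. Its difference thus came from DMSO replicate 1 alone, since the other 3 arrays held the same value. BUB1 and BUB1B, checkpoint kinases of the kinetochore, had changes of 0.05 and -0.09. BUB3, their partner, had a change of -0.02 by its brightest probe set. Its other 3 probe sets gave -0.29, -0.20 and -0.07, and the first of these had an interval from -0.40 to -0.17, so its probe sets disagree on the size.

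Of the 2 measured anaphase genes, CDC20, which activates the anaphase-promoting complex, stood at 8.72 and 8.75 with celastrol and at 8.73 and 8.75 with DMSO. The 4 values nearly coincided, and the interval of the change ran from -0.08 to 0.07. PTTG1, or securin, which restrains separase until anaphase, stood at 10.48 and 10.46 against 10.59 and 10.48. Celastrol replicate 1 shared its value with DMSO replicate 2, and the change was -0.07 (interval -0.23 to 0.10).

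The 7 kinesins had a median change of -0.02, with 4 below 0 and 3 above. KIF2C, which depolymerises microtubules at centromeres, stood at 6.64 on both celastrol arrays and at 7.0 and 6.93 with DMSO. It was the member of smallest p on the lower side, with a change of -0.32 (SE 0.0331, limma adjusted p = 0.126) and -0.15 by its second probe set. KIF11, the motor that pushes spindle poles apart, stood at 4.99 and 5.05 with celastrol and at 5.25 and 5.58 with DMSO. The groups were separate, but the DMSO arrays were far apart, and the interval of its change of -0.39 ran from -0.84 to 0.06.

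KIF14, a motor of cytokinesis, stood at 5.70 on both celastrol arrays and at 5.49 and 5.70 with DMSO. As for TTK, 3 arrays held 1 value and DMSO replicate 1 a lower one. KIF23, a motor of the central spindle, stood at 4.71 and 4.65 against 4.71 and 4.64. The groups of KIF23 coincided, and the remaining kinesins, KIF20A, KIF4A and the centromere motor CENPE, had changes between -0.04 and 0.02.

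In the 6 genes of spindle assembly and the midzone 3 changes lay below 0 and 3 above. TPX2, which activates Aurora A and nucleates spindle microtubules, stood at 9.21 on both celastrol arrays and at 9.03 and 9.09 with DMSO. The celastrol arrays were higher, with a change of 0.15 (SE 0.0280, limma adjusted p = 0.206). NUSAP1, a microtubule bundling protein, stood at 9.27 and 9.32 with celastrol and at 9.40 on both DMSO arrays. It was lower by its brightest probe set, with a change of -0.11 (SE 0.0289, limma adjusted p = 0.319). Its second probe set had a change of -0.0029 with an interval from -0.28 to 0.27. HMMR, a spindle-associated hyaluronan receptor, stood at 9.0 and 8.90 against 8.81 and 8.88. Its groups were separate by a narrow gap, with a change of 0.10 (interval -0.07 to 0.28). PRC1, which crosslinks midzone microtubules, had separate groups and a change of -0.10, while DLGAP5 at 0.04 and RACGAP1 at -0.06 overlapped.

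Among the 5 genes of the centromere and chromosome, BIRC5 stood apart. BIRC5 encodes survivin, a subunit of the chromosomal passenger complex, and its level was 7.94 and 7.59 with celastrol and 8.37 and 8.20 with DMSO. Both celastrol arrays were lower, but they differed from each other by more than the gap between the groups, and the change of -0.52 had the largest SE of any member, 0.160 (limma adjusted p = 0.374). Its other 2 probe sets gave changes of -0.65 (SE 0.0850, limma adjusted p = 0.15) and -0.38 (SE 0.0572, limma adjusted p = 0.174). All 3 probe sets of BIRC5 thus lay below 0 with intervals that left out 0, which was also so for the 3 of CDK1. Probe sets of 1 gene share their RNA and are not replicates.

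MKI67, the proliferation marker Ki-67, stood at 7.36 and 7.67 with celastrol and at 7.59 and 7.67 with DMSO. Celastrol replicate 2 and DMSO replicate 2 held the same value, and the interval of the change ran from -0.55 to 0.31. TOP2A, the topoisomerase that untangles chromosomes, stood at 7.74 and 7.46 against 7.54 and 7.49. The celastrol arrays lay on either side of the DMSO arrays. CENPA, the centromeric histone, and CENPF, a kinetochore protein, had changes of -0.0038 and -0.0147. FOXM1, the transcription factor of the group, stood at 7.59 and 7.51 with celastrol and at 7.63 and 7.59 with DMSO. The groups of FOXM1 touched at a shared value, and the change was -0.06 (interval -0.20 to 0.07).

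More than 1 probe set was present for 15 members, and in 10 of them all probe sets had changes of the same sign. Counting only probe sets brighter than the 40% dimmest, 14 members had several, and in 11 the signs were the same; BUB1, MKI67 and TOP2A were the exceptions. BUB1 had 0.05, 0.13 and -0.06, MKI67 had -0.12, -0.24, 0.05 and 0.08, and TOP2A had 0.08 and -0.10. For AURKA another, dim probe set gave 0.20 against -0.05 and -0.03 for the brighter ones, and CENPF also had dim probe sets of either sign. None of the 66 probe sets of members passed the adjusted threshold, with an unadjusted limma p under 0.05 for 13 on the lower side and 4 on the higher. The 13 take some genes more than once, among them all 3 probe sets of BIRC5 and all 3 of CDK1. The share over all probe sets is not given, so these counts show no excess.

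**Figure D3:**
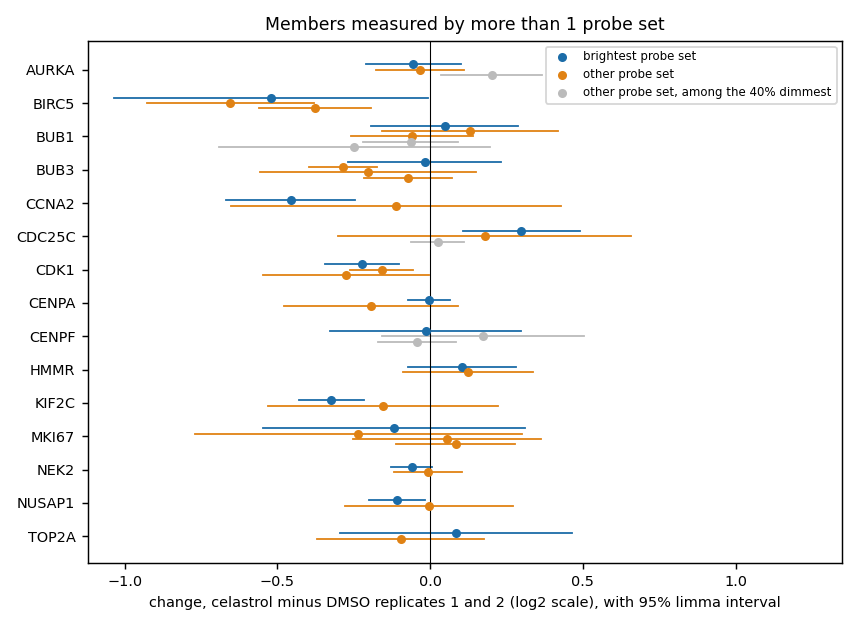
Change with celastrol, on the log2 scale with 95% limma intervals, of every probe set of the 15 members that have more than 1; blue is the brightest, orange another and grey another among the 40% dimmest. All 3 probe sets of BIRC5 and of CDK1 lie below 0, while those of BUB1, MKI67 and TOP2A lie on both sides.

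Further genes of the same processes, in 6 lists that share no member with the 40, also held no gene past the threshold. Of 143 listed, 116 were measured and 0 passed the limma test after adjustment with the dim probe sets kept or left out. Of these, 22 were under 0.05 by the unadjusted limma p on the lower side (19.0%, against 12.6% of bright genes, which 108 of the 116 were) and 7 on the higher (6.03%, against 7.86%). Their median change was -0.06, with 77 below 0 (66.4%) and 38 above (32.8%). The median was -0.09 for 23 kinetochore and chromosomal passenger genes, -0.09 for 12 genes of the anaphase-promoting complex, -0.05 for 22 regulators of G2 entry and its checkpoint, -0.04 for 13 DREAM and MuvB regulators, -0.03 for 29 other spindle and cytokinesis genes and -0.0047 for 17 condensin and cohesin genes. The 12 anaphase-promoting complex genes had both celastrol arrays below both DMSO arrays in 7 cases (58.3%, against 26.5% of bright genes) and above in 0 (16.3% of bright genes); the list is singled out after its values were seen.

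Single genes of these lists had differences of the size seen in the members. ZWINT, a kinetochore protein, had a change of -0.41 (SE 0.0445, limma adjusted p = 0.133), and GTSE1, a G2 and S phase protein, one of -0.24 (SE 0.0183, limma adjusted p = 0.0981). ANAPC13 and the ubiquitin-conjugating enzyme UBE2S, which extends chains on substrates of the complex, had changes of -0.26 and -0.24. WEE1, the kinase that inhibits CDK1, had a change of -0.23, and CCNG2, an atypical cyclin linked to cell cycle arrest, one of -0.42 (limma adjusted p = 0.103). GADD45A, a stress-induced inhibitor of CDK1, stood at 7.77 and 7.67 with celastrol and at 7.05 and 7.26 with DMSO, a change of 0.57 (SE 0.0982, limma adjusted p = 0.194). Among the DREAM and MuvB genes, TFDP1, a partner of E2F factors, had a change of -0.39, RBL2, the p130 pocket protein, -0.28 and LIN37, a MuvB subunit, 0.38.

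The nearest other programme, S phase genes, is given for the scale. Of 44 measured, 0 passed the adjusted threshold, 36 lay below 0 (81.8%, against 56.0% of bright genes) and the median was -0.20. The 39 mitotic members had 24 below 0 and a median of -0.02. Both celastrol arrays lay below both DMSO arrays for 27 of the 44 (61.4%) and for 11 of the 39 (28.2%), against 26.5% of bright genes. Without adjustment, 17 of the S phase genes (38.6%) and 8 of the members (20.5%) had a limma p under 0.05 on the lower side, against 12.6% of bright genes. The difference between the lists was not tested.

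**Figure D4:**
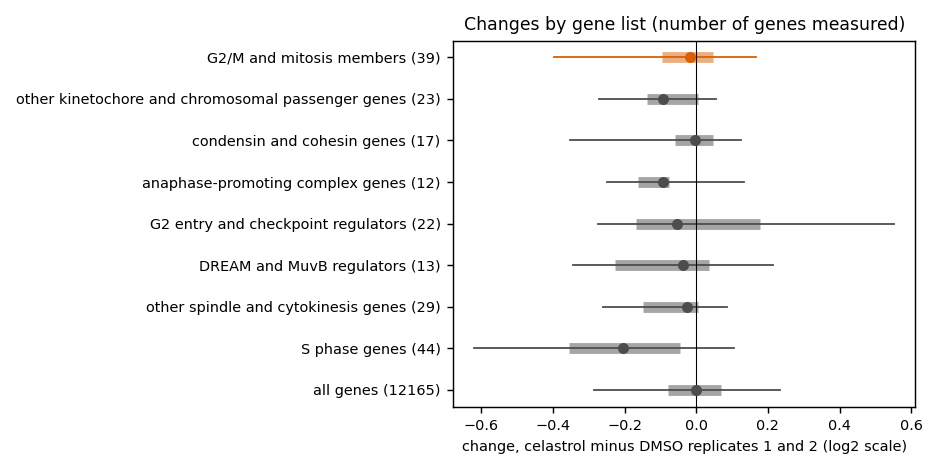
Changes with celastrol (log2 scale) in the 39 members (orange), 6 lists of other mitotic genes, S phase genes and all genes; the point is the median, the thick bar runs from the 25th to the 75th percentile and the thin line from the 5th to the 95th. The members are centred at -0.02 and the S phase genes at -0.20.

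On the array labelled DMSO replicate 3 most members were higher than on the LNCaP-like arrays. It exceeded the mean of DMSO replicates 1 and 2 by at least 2-fold for 16 of the 39 members (41.0%, against 8.29% of all and 8.63% of bright genes) and fell short of it by at least 2-fold for 0 (12.0% and 18.1%). It lay above all 4 other arrays for 33 members (84.6%, against 36.3% and 30.8%) and below all of them for 4 (10.3%, against 37.5% and 50.5%). The median difference was 0.76. With 1 such array there is no test.

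MKI67 differed most there, at 10.08 on DMSO replicate 3, 5.47-fold above DMSO replicates 1 and 2. AURKB followed at 3.49-fold and KIF2C at 3.43-fold, and PLK1, CDC20 and TOP2A stood 2.39-fold, 2.42-fold and 2.23-fold higher. The 4 members below all other arrays on it were CDC25C, at 5.77 with a difference of -0.89, PRC1 at -0.49, CDK1 at -0.44 and KIF4A at -0.08. CCNB1 stood 0.49 higher, CKS2 0.87 higher and FOXM1 0.03 higher. The same array held luminal markers at low and leukocyte markers at high values, as given above, and the part of these cells' identity in the members' levels was not tested. If it is counted as a DMSO sample, the median member change becomes -0.28, and 12 members change sign. Of these, TPX2, TTK, KIF14, KIF23, CCNB1, CCNB2, CKS1B, CDKN3, BUB1, DLGAP5 and TOP2A go from above to below 0, and PRC1 from below to above.

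**Figure D5:**
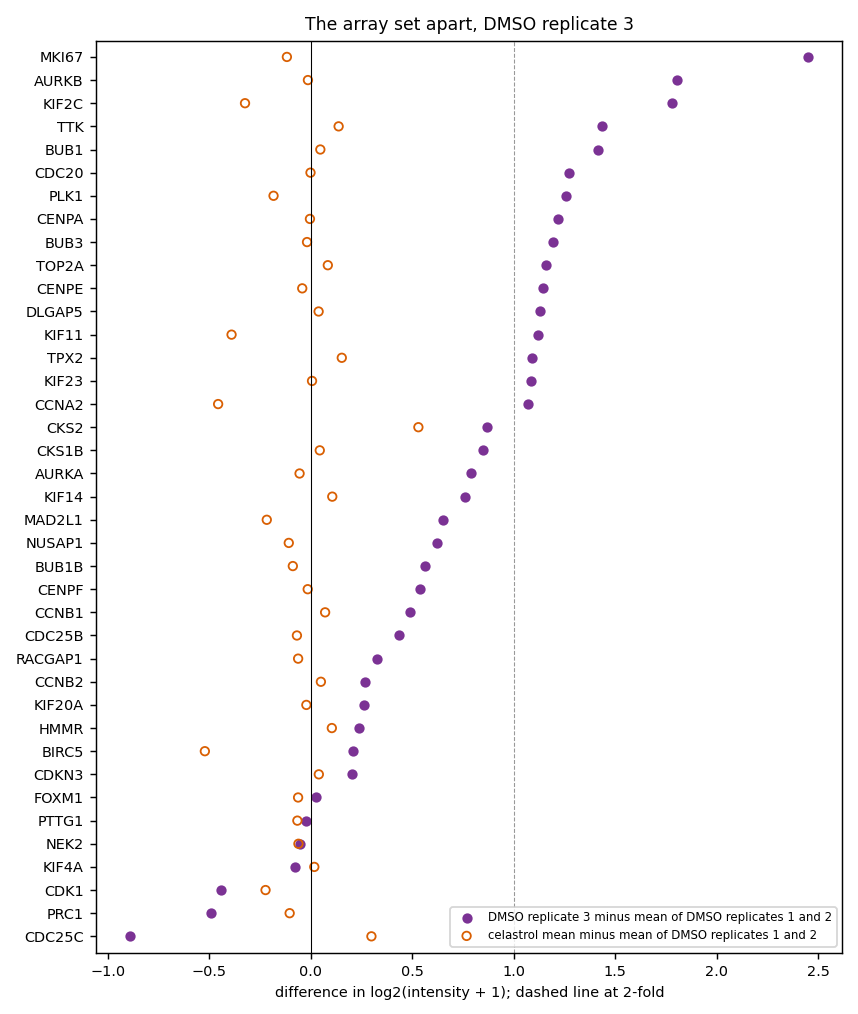
Difference of DMSO replicate 3 (purple) and of the celastrol mean (orange circles) from the mean of DMSO replicates 1 and 2, in log2(intensity + 1), for each member; the dashed line marks a 2-fold excess. The purple points pass the dashed line for 16 members, up to 2.45 for MKI67, while the celastrol points stay between -0.52 and 0.53.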

How the data were processed

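Per the labels' protocols, total RNA isolated with Trizol was made into biotinylated cRNA for Affymetrix arrays. The deposited table gives each probe set a linear intensity on each array, summarised with RMA according to the submitters' processing notes; the version of RMA is not given in the sources used here. Groups follow the titles, since the description of the DMSO samples speaks of celastrol. The analysis used log2(intensity + 1) and did not normalize again. Among 22215 probe sets there were 19724 with 1 gene symbol, 568 with several and 1923 unnamed here. A gene is its brightest probe set over the 4 compared arrays. Celastrol was compared with DMSO replicates 1 and 2 by limma 3.58.1 in R 4.3.3 (lmFit and eBayes, two-sided). Benjamini-Hochberg adjustment ran over all 22215 probe sets, with a threshold of 0.05. The fit was tested on simulated data whose planted changes were larger than that of any member. That check therefore does not cover changes of the size reported here. RMA gave identical values on pairs of these arrays for 17.1% to 19.3% of probe sets, and 9 members were tied within a group. The members, lists and tests were chosen with earlier results of these data known. Values by array are printed for the 6 members of smallest p in each direction, the 3 brightest, the 3 dimmest, the 3 of largest SE and 8 fixed genes; of other lists, the 2 of smallest p in each direction could be named. Alternatives covered the arrays, dim filters, pseudocount, normalization, variance model, replicate block, choice of probe set and leaving out each array. Pairing by replicate number was checked over probe sets: the correlation of the celastrol difference with the DMSO difference was -0.0197, so numbers were not used as pairs.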

Additional observations from a re-analysis of the deposited data

Results flagged for a closer look

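DMSO replicate 3, which enters no comparison of groups, held 16 members at least 2-fold above the mean of DMSO replicates 1 and 2, a signal in an array outside the main measurement. The same array had leukocyte and lymphoid markers summing to 33800, against 904 to 979 on the others.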

How the results depend on the processing

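No member was called lower in any alternative that kept at least 2 arrays in each group. Some of these called few genes of any kind. With all 5 arrays and with the replicate block, 0 of all genes were called lower and 0 higher. With either other variance model the totals were 0 and 1. The lack of called members in those settings therefore says little about the members. The count called higher went from 0 to 1, CKS2, with the 40% dimmest probe sets left out, with log2(value + 16), with quantile normalization, with median centring and with the mean of all probe sets of a gene; CKS2 then had changes of 0.53, 0.53, 0.51, 0.55 and 0.53. All genes called lower and higher numbered 1 and 1 in the reported fit, 38 and 46 with that dim filter, 10 and 19 with log2(value + 16), 48 and 77 with quantile normalization, 35 and 57 with median centring and 19 and 32 with the mean of probe sets; the cause was not tested. Members with both celastrol arrays above both DMSO arrays went from 4 to 9 with quantile normalization and 9 with median centring, and to 1 with all 5 arrays, where the median change was -0.28. There TPX2 had -0.21, TTK -0.34, KIF14 -0.15, KIF23 -0.35, CCNB1 -0.0929 and TOP2A -0.30. CDC20 changed sign to 0.0229 with quantile normalization and to 0.0198 with median centring. With the mean of probe sets AURKA had 0.0376 and TOP2A -0.0062. With 1 array left out, where the lone array of a group is assumed to vary like the other group, the median ran from -0.0428 to 0. The members below ran from 14 to 20 and those above from 4 to 13, since a lone array overlaps less. Shares over all genes are not given for the separation counts of the alternatives. The count below was 20 without celastrol replicate 1, and the count above was 8 without celastrol replicate 2 and 13 without DMSO replicate 2. Single changes then ran from -0.0284 to 0.0414 for KIF23, -0.27 to 0.0388 for MKI67, -0.0557 to 0.22 for TOP2A, -0.0141 to 0.0121 for CDC20 and -0.0275 to 0.17 for CCNB1, from -0.56 to -0.22 for KIF11 (-0.22 without DMSO replicate 2) and from 0.52 to 0.54 for CKS2. The replicate block called 0 members and left the median at -0.02, so it changed no call of a member. Over all genes it called 0, where the reported fit called 1 lower and 1 higher. Of the 23 members named by the rule for values by array, 9 changed sign in at least 1 alternative; of all 39, 12 did so with all 5 arrays.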
